A study of Pyronema omphalodes CBS 100304 with 9 samples.

Results

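The genes described here encode translation factors and aminoacyl-tRNA synthetases of the fungus Pyronema omphalodes, an ascomycete also known as P. confluens that forms disc-shaped fruiting bodies on soil. They were chosen by their product description: it had to name a translation initiation factor, an elongation factor, a tRNA ligase or synthetase, or a peptide chain release factor, and descriptions that name transcription were left out. The rule found 91 of 13369 gene models. It reads descriptions only, but it was set with earlier results of these data known. Cytosolic initiation factors made up 37 of the 91. A further 3 were initiation factors of the bacterial type, 7 cytosolic and 2 mitochondrial elongation factors, 2 cytosolic and 2 mitochondrial release factors, and 1 a recycling factor. Aminoacyl-tRNA synthetases made up 35, which cover all 20 amino acids. The other 2 matched the rule by name but act outside the translation cycle: a tRNA ligase of tRNA splicing and a kinase that phosphorylates initiation factor 2.

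Protein synthesis starts when initiation factors bring the initiator tRNA and the small ribosomal subunit to a messenger RNA and find its start codon. Elongation factors then deliver charged tRNAs and move the ribosome along, release factors end the chain at a stop codon, and recycling factors split the ribosome. Aminoacyl-tRNA synthetases supply the charged tRNAs by joining each amino acid to its own tRNA. Mitochondria translate their own few messengers with bacterial-type factors and with synthetases, nearly all of them encoded in the nucleus. For alanine, glycine and some other amino acids, the descriptions here name a single synthetase gene, so no separate mitochondrial enzyme is named.

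Transcripts were counted in 9 RNA-seq libraries of 1 strain, CBS 100304. Protoapothecia, the young fruiting bodies, came in 3 biological replicates (A, B and C). They developed within 4 d at 25 °C on microdissection slides, each under 150 µl of agar-solidified (0.8%) WPC medium, and whether these stood in light or in darkness is not stated. Sexual mycelium (libraries 1 and 2) grew as surface culture on WPC medium in constant light, and RNA of days 3, 4 and 5 was pooled. Vegetative mycelium (1 and 2) was the same kind of culture kept in constant darkness. The vegetative pool (1 and 2) combined RNA of 3-d-old cultures: submerged WPC cultures in light and in darkness, and a dark surface culture on BMM medium. Protoapothecia were fixed in ethanol and cut out by laser, and their RNA was amplified linearly, while mycelium RNA was extracted in bulk for an earlier study. Tissue and method of preparation therefore cannot be told apart wherever protoapothecia are compared with mycelium. The labels describe each mycelium library as 1 of a pair of technical replicates of its numbered sample, and no label names separate cultures for the numbered samples of a group. Every SD over 2 mycelium libraries therefore measures only the spread between these libraries, and that spread may be technical. The p-values come from 1 fit of all 9 libraries. They mix that spread with the spread between the 3 protoapothecium replicates, also where mycelium groups are compared with each other.

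Library totals ran from 5583951 counts in protoapothecia B to 24803660 in protoapothecia C. Levels are read counts relative to library size, given as CPM, after TMM scaling. Changes are log2 fold changes with their standard error from edgeR's quasi-likelihood test, and a gene is called when its p-value, adjusted over all 11787 genes tested, is below 0.05. All 91 genes passed the filter on low counts. As a check of the labels, the summed CPM of 8 lectin genes, a protein class known to be abundant in fungal fruiting bodies, was 23720, 21890 and 15920 in the protoapothecia and 889.5 to 6973 in the mycelium libraries. Most of that sum came from the fucose-specific lectin PCON_04233 and the lectin PCON_12683, and other lectins did not follow: PCON_01052 had 30.95 to 34.7 CPM in protoapothecia and 43.8 to 73.9 CPM in mycelium, and a gene named galectin-3 (PCON_06081) had at most 0.214 CPM in protoapothecia and 1.44 to 311 CPM in mycelium. The summed CPM of 4 genes described with mating type overlapped, at 205 to 362 in protoapothecia and 166 to 326 in mycelium. That list includes the switching proteins swi10 and swi5. MAT1-1-1 (PCON_07491) had 103 to 194 CPM in protoapothecia, 90.6 and 119 CPM in sexual mycelium and 21.6 to 27.9 CPM in the other libraries. Mating-type protein a-1 (PCON_08389) had 72.8 to 140 CPM in protoapothecia and 132 to 199 CPM in mycelium. The summed CPM of 4 conidiation-specific genes was 1.71 to 94.9 in protoapothecia and 18.5 to 753 in mycelium. The median mRNA length of the 91 genes was 1843 bp, against 1187 bp over all genes. Change against length is therefore given beside the counts below.

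Most of the translation genes were lower in protoapothecia than in each kind of mycelium. Against sexual mycelium, 7 rose and 59 fell, and 25 were not called. Over all genes tested, 26.7% were called higher and 34.5% lower in that comparison, against 7.69% and 64.8% of the 91. The median log2 change was −1.24 for the 91 and −0.14 for all genes. Against vegetative mycelium, 13 rose and 62 fell, a share of 14.3% higher and 68.1% lower, with 36.4% and 32.8% over all genes. Medians were −1.42 and 0.15. Against the vegetative pool, 11 rose and 66 fell, or 12.1% and 72.5%, with 34.8% and 34.4% over all genes, and the medians were −1.52 and 0.05. The 3 comparisons share the same protoapothecium libraries. The count of genes that rose is the less stable number. Against sexual mycelium it was 11 without protoapothecia B, 4 without sexual mycelium 1 and 3 without sexual mycelium 2. Against the vegetative pool it was 5 without pool library 1 and 6 without pool library 2.

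Of the genes that fell against sexual mycelium, 51 were at least 2-fold lower and 30 at least 4-fold lower, while 5 of those that rose were at least 2-fold higher. Shares of all genes at these folds are not given. The lower quartile of the log2 change was −2.26 for the 91 and −1.73 for all genes, so large decreases were also common among all genes. The upper quartile was −0.10 for the 91 and 1.21 for all genes. Together the 91 genes took 1.24%, 1.17% and 1.07% of the counts in protoapothecia A, B and C. They took 5.21% and 5.39% in the sexual mycelium libraries, 5.58% and 5.33% in vegetative mycelium and 5.43% and 5.11% in the vegetative pool. The protoapothecium libraries thus lay together, well below all mycelium libraries, and the mycelium groups overlapped. Cytosolic elongation factors made up the largest portion, with a mean of 0.609% in protoapothecia, against 3.67% in sexual mycelium. Cytosolic initiation factors took 0.339% in protoapothecia and 0.878% in sexual mycelium, and synthetases 0.161% and 0.599%. These are shares of a library, and fewer cells with active translation and less of these messengers per cell cannot be told apart.

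**Figure D1:**
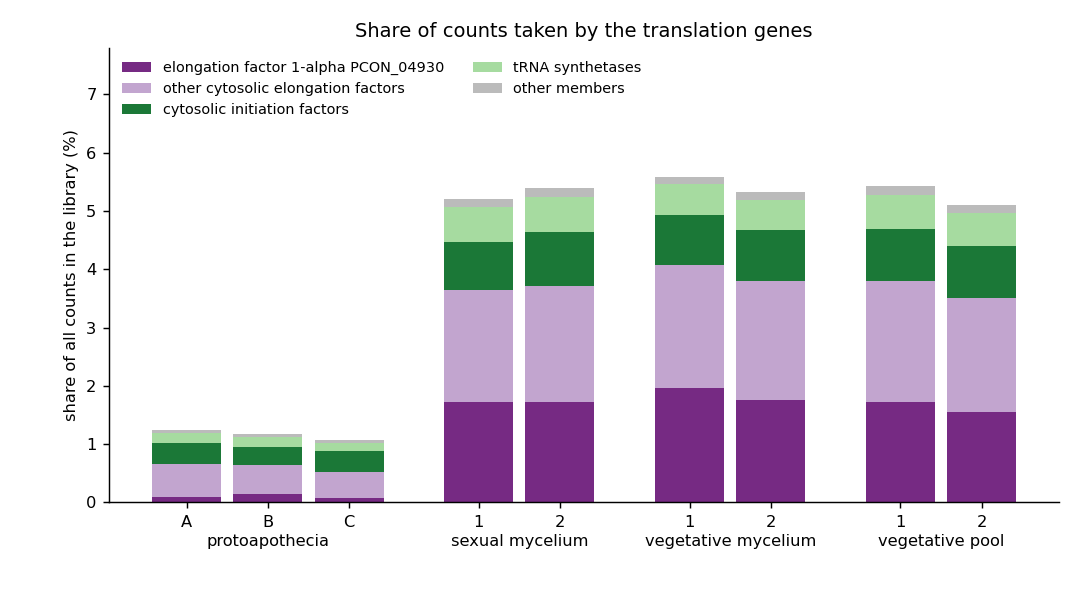
Share of each library's counts (percent, y axis) taken by the 91 genes, stacked by role, for 3 protoapothecium and 6 mycelium libraries (x axis). Protoapothecia sit between 1.07% and 1.24%, the mycelium libraries between 5.11% and 5.58%.

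Protoapothecia held the lowest mean of the 4 groups for 68 of the 91 genes (74.7%, against 39.6% of all genes) and the highest for 16 (17.6%, against 37.9%). The vegetative pool held the highest mean for 41 of the 91 (45.1%, against 19.5% of all genes).

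Among all genes, the longest had the lowest changes in protoapothecia. With all genes split into 4 equal classes of mRNA length, from the shortest, the median log2 change of all genes against sexual mycelium was 0.02, 0.11, 0.01 and −0.61. It was 1.16, 0.63, 0.10 and −0.60 against vegetative mycelium and 0.92, 0.40, −0.05 and −0.56 against the pool, a steeper trend. Among the 2878 genes of 1527 to 2429 bp, which holds 45 of the translation genes, 28.3% were called higher and 36.5% lower, with a median of −0.12. Of the 45, 3 rose and 33 fell, with a median of −1.53. Against vegetative mycelium 32.3% of the genes in that range were called higher and 37.4% lower, and of the 45, 5 rose and 34 fell. Against the pool the shares were 31.0% and 38.3%, and of the 45, 4 rose and 37 fell. With the length trend taken out of the counts, 9 of the 91 rose and 53 fell against sexual mycelium, and the median was −0.89 against 0.15 for all genes. In the same way 12 rose and 55 fell against vegetative mycelium, and 11 rose and 60 fell against the pool. Some calls ended with that trend removed, and 1 of the 75 genes called against vegetative mycelium changed sign. Against sexual mycelium these included eIF3 subunit C PCON_02328 (−0.02) and eIF2B epsilon PCON_13648 (−0.11). Against vegetative mycelium they included eIF1 PCON_13806 (0.4), eIF3 subunit J PCON_08938 (0.55), EF-3 PCON_12723 (−0.34), mitochondrial IF-2 PCON_03018 (−0.09) and eRF1 PCON_13373 (−0.46). Against the pool they included EF-1 gamma PCON_08025 (0.78).

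**Figure D2:**
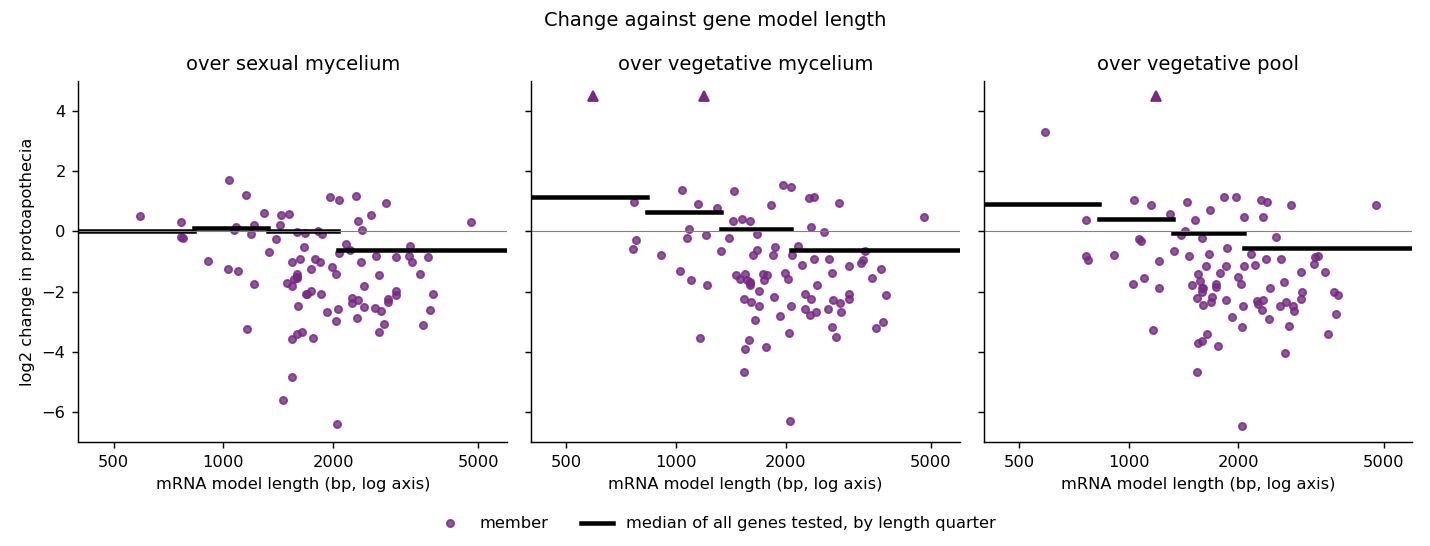
Log2 change in protoapothecia over each kind of mycelium (y axis) against mRNA length in bp (x axis, log scale). Points are the 91 translation genes, and bars are medians of all genes tested in equal classes of mRNA length. From 1527 to 2429 bp, the median over sexual mycelium was −1.53 for the translation genes and −0.12 for all genes.

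**Figure D3:**
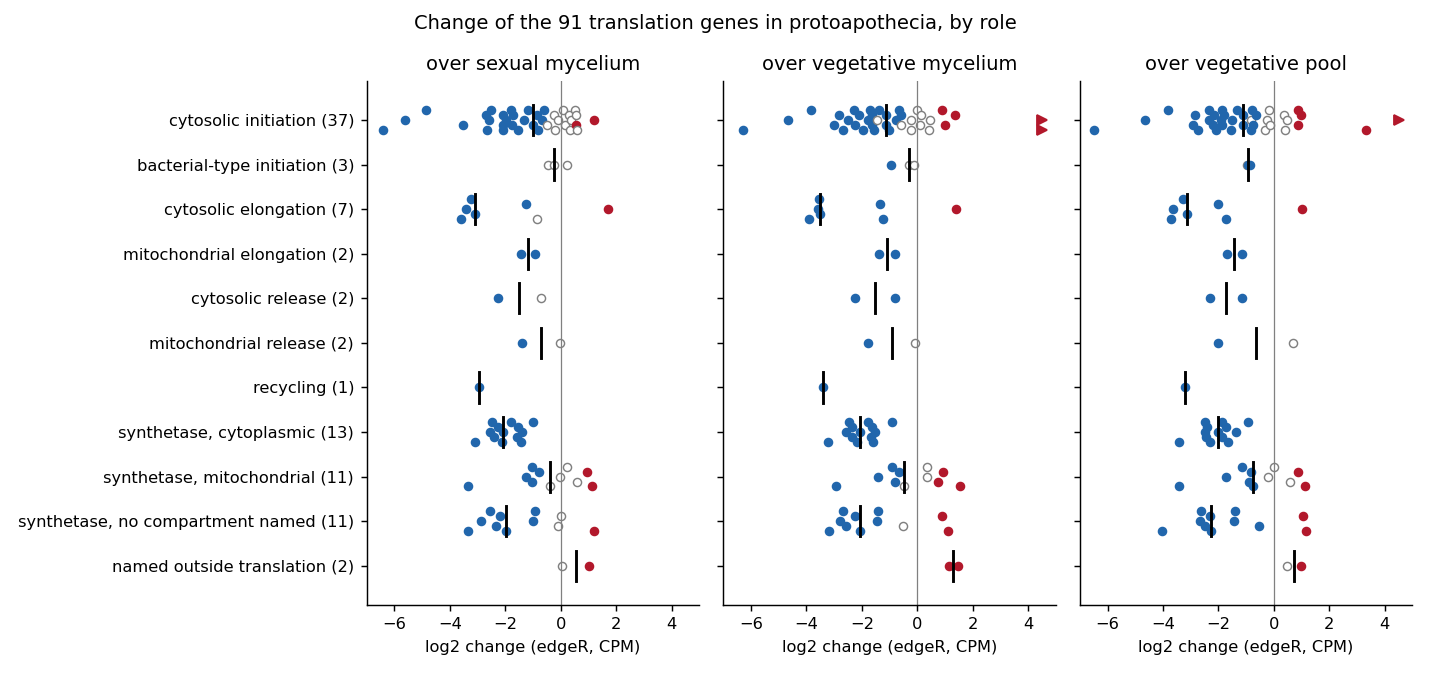
Log2 change of each of the 91 genes (points) in protoapothecia over each kind of mycelium, grouped by role, with the median of each role. By role median, cytosolic elongation factors and the recycling factor RLI1 lie lowest against sexual mycelium. The lowest single gene is the initiation factor eIF5, at −6.40 against sexual mycelium. Cytoplasmic synthetases have a median of −2.07 there, and mitochondrial synthetases scatter around a median of −0.40.

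Among the cytosolic initiation factors, 2 of 37 rose and 23 fell against sexual mycelium, 5 rose and 23 fell against vegetative mycelium, and 5 rose and 24 fell against the vegetative pool. Beside this, 26.7% of all genes were higher and 34.5% lower against sexual mycelium. The shares over all genes were 36.4% and 32.8% against vegetative mycelium, and 34.8% and 34.4% against the pool. The counts of initiation factors that rose were unstable. Against sexual mycelium the count was 0 without sexual mycelium 1, 5 without protoapothecia B and 1 without any other single library except protoapothecia C. Against the pool it was 1 without pool library 2, 2 without protoapothecia A or pool library 1, and 3 without vegetative mycelium 2. The largest decrease of all 91 genes belonged to eIF5 (PCON_09275, scaffold 437, 14240 to 16345, plus strand), which makes eIF2 hydrolyse its GTP once the start codon is found. It had 3.63, 3.42 and 2.37 CPM in protoapothecia A, B and C. In mycelium it had 252 and 273 CPM in sexual mycelium, 234 and 252 CPM in vegetative mycelium and 275 and 279.6 CPM in the vegetative pool. The groups are far apart, since the 6 mycelium libraries lay within a narrow range. The log2 change was −6.40 ± 0.25 against sexual mycelium (edgeR adjusted p = 2.23e-06), which is 84.4-fold lower, and it was −6.29 and −6.48 against vegetative mycelium and the pool. The GTPase eIF5B (PCON_09563), which joins the ribosomal subunits, also fell (log2 −2.09 against sexual mycelium, edgeR adjusted p = 0.000608).

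All 3 subunits of eIF2, the GTPase that carries the initiator tRNA, fell against every kind of mycelium. The gamma subunit (PCON_13340), which binds GTP, had 32.2, 27.6 and 35.6 CPM in protoapothecia, against 187 and 225 CPM in sexual mycelium, a log2 change of −2.69 ± 0.20 (edgeR adjusted p = 8.17e-06). The beta subunit (PCON_05604) changed by −1.80 ± 0.25 and the alpha subunit (PCON_13348), the target of regulatory phosphorylation, by −1.76 ± 0.31. Of the 5 genes named as subunits of eIF2B, which reloads eIF2 with GTP, 3 fell in each comparison. All genes called lower made up 34.5% against sexual mycelium, 32.8% against vegetative mycelium and 34.4% against the pool. The eIF2B count dropped to 2 against sexual and against vegetative mycelium under at least 1 alternative. The gamma subunit of eIF2B (PCON_13173) was not called, with 105, 205 and 70.7 CPM in protoapothecia and 90.5 and 108 CPM in sexual mycelium. The beta (PCON_03661), delta (PCON_09622) and a long epsilon gene (PCON_13648) of eIF2B were those that fell, with log2 changes of −1.96, −2.095 and −0.85 against sexual mycelium. The separate factor eIF2A (PCON_14343) fell by 2.65 on the log2 scale against sexual mycelium.

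The scaffold eIF3, the largest initiation factor, split. Of its 14 genes, 2 rose and 9 fell against sexual mycelium, 1 rose and 9 fell against vegetative mycelium, and 1 rose and 10 fell against the pool. Lower calls made up 64.3% of the 14 against sexual and against vegetative mycelium. Over all genes they made up 34.5% and 32.8% there, and 34.4% against the pool. Subunit L (PCON_12534, scaffold 686, 1280 to 3150, plus strand) had 15.9, 16.5 and 13.2 CPM in protoapothecia, against 159 and 191 CPM in sexual mycelium, 217 and 216 CPM in vegetative mycelium and 217 and 205 CPM in the pool. Its change against sexual mycelium was −3.53 ± 0.20 (edgeR adjusted p = 3.6e-06). Subunit A (PCON_13349), the backbone of the complex, averaged 39.6 ± 0.97 CPM in protoapothecia (SD, n = 3) and 239.7 ± 20.6 CPM in sexual mycelium (SD, n = 2), a change of −2.60. A second, shorter gene named as subunit A (PCON_09544, 427 residues and no domain in the deposited table) had at most 0.349 CPM in protoapothecia and 5.43 to 8.4 CPM in mycelium.

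Subunit J (PCON_08938, scaffold 408, 23376 to 24702, minus strand), a loosely attached subunit in yeast, was higher in protoapothecia. It had 418, 229 and 512 CPM in protoapothecia, against 153 and 184 CPM in sexual mycelium, 215 and 201 CPM in vegetative mycelium and 197 and 228 CPM in the pool. The increase was 1.2 ± 0.32 against sexual mycelium (edgeR adjusted p = 0.00976), and the call was lost without sexual mycelium 1 (log2 1.07). It was 0.90 against vegetative mycelium (edgeR adjusted p = 0.0302), where leaving out protoapothecia A or C or either vegetative mycelium library ended the call. Against the pool it was 0.87 (edgeR adjusted p = 0.0348), where leaving out protoapothecia A or C, vegetative mycelium 2, or any sexual mycelium or pool library did so.
Subunit G (PCON_05603) rose by 0.54 ± 0.19 against sexual mycelium (edgeR adjusted p = 0.0301), with 362, 346 and 350 CPM in protoapothecia and 222 and 262 CPM in sexual mycelium. That call was lost on leaving out protoapothecia A or any of the 6 mycelium libraries. Its changes against vegetative mycelium and the pool were −0.02 and −0.19. Subunits H (PCON_08141) and K (PCON_03097) were not called in any of the 6 comparisons. Of the other subunits, B (PCON_01583) fell by 2.503 on the log2 scale against sexual mycelium, with 41.8 ± 15.7 CPM in protoapothecia (SD, n = 3) and 235 ± 30.1 CPM in sexual mycelium (SD, n = 2). Subunits F (PCON_06444), I (PCON_13351) and C (PCON_02328) fell with changes of −1.72, −1.17 and −0.83. Genes of 1 complex were thus called lower, called higher or not called.

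Several initiation factors with high levels were not called lower. eIF1A (PCON_13649, scaffold 862, 280420 to 281714, plus strand), which helps select the start codon, had 530, 515 and 469 CPM in protoapothecia and 435 and 529.9 CPM in sexual mycelium. Its change was 0.06 ± 0.20 (edgeR adjusted p = 0.802) and it was not called in any of the 6 comparisons. The cap-binding factor eIF4E-1 (PCON_01473) was not called either, with 234, 129 and 325 CPM in protoapothecia and 268 and 281 CPM in sexual mycelium. eIF1 (PCON_13806), the partner of eIF1A, had 299.6, 279 and 251 CPM in protoapothecia, 227 and 221 CPM in sexual mycelium and 126 and 153 CPM in vegetative mycelium. It rose by 0.99 against vegetative mycelium (edgeR adjusted p = 0.0015) and was not called against sexual mycelium (log2 0.31, edgeR adjusted p = 0.19). The other eIF1 gene (PCON_04073) fell by 1.0 against sexual mycelium, and its share of the eIF1 pair per kilobase was 12 to 20.8% in protoapothecia and 30.2 to 41.9% in mycelium. eIF6 (PCON_03192), which keeps the large ribosomal subunit from joining too early, had 114, 96.0 and 118 CPM in protoapothecia, 63.5 and 85.4 CPM in sexual mycelium, 41.0 and 45.0 CPM in vegetative mycelium and 62.4 and 48.5 CPM in the pool. It rose against vegetative mycelium (1.35 ± 0.23, edgeR adjusted p = 0.000704) and against the pool (0.98, edgeR adjusted p = 0.0041, lost without pool library 2 with 0.81). Against sexual mycelium its change was 0.56 (edgeR adjusted p = 0.0569).

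eIF5A (PCON_04746, scaffold 168, 73928 to 75942, minus strand), which relieves stalled ribosomes and carries the modified residue hypusine, had the highest level per kilobase of the cytosolic initiation factors. It stood at 296, 296 and 298 CPM in protoapothecia, against 1179 and 1340 CPM in sexual mycelium, 1686 and 1644 CPM in vegetative mycelium and 1396 and 1616 CPM in the pool. The 3 protoapothecium values were nearly equal and the change was −2.09 ± 0.20 against sexual mycelium (edgeR adjusted p = 2.68e-05). Of the enzymes that make hypusine, deoxyhypusine synthase (PCON_07668) had 20.1, 78.3 and 24.9 CPM in protoapothecia A, B and C and 10.98 and 13.2 CPM in sexual mycelium. Its change was 1.75 (edgeR adjusted p = 0.0223), and protoapothecia B, the shallowest library, was far above the others. The change was 0.91 without that library (edgeR adjusted p = 0.0205), and the call was lost without sexual mycelium 1 (1.62) or 2 (1.89). Deoxyhypusine hydroxylase (PCON_13368) fell, with 4.30 ± 1.13 CPM in protoapothecia and 19.8 ± 2.13 CPM in sexual mycelium, a change of −2.20 (edgeR adjusted p = 0.00054).

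The eIF4 group binds the cap and the messenger, and 3 of its 7 genes fell in each comparison. That is 42.9%, near the share over all genes, which was 34.5% against sexual mycelium, 32.8% against vegetative mycelium and 34.4% against the pool. Only 1 gene of the group was called lower against sexual mycelium without sexual mycelium 2, against vegetative mycelium without either of its libraries, and against the pool without pool library 2. The helicase eIF4A (PCON_08798) averaged 46.8 ± 11.01 CPM in protoapothecia (SD, n = 3) and 75.1 ± 13.8 CPM in sexual mycelium (SD, n = 2), a change of −0.67 ± 0.24 that was called (edgeR adjusted p = 0.0364) but lost under 12 of 17 alternatives, among them leaving out protoapothecia B or any mycelium library. The scaffold eIF4G is named by 3 genes with unlike patterns. PCON_10606 had 185, 111 and 250.3 CPM in protoapothecia and 102 and 96.0 CPM in the pool, a rise of 0.88 (edgeR adjusted p = 0.0359) that was lost without protoapothecia A or C, vegetative mycelium 2 or either pool library. It was not called against sexual mycelium, which had 125 and 169 CPM. PCON_14254, a short model of 283 residues, was present in protoapothecia (7.42, 3.42 and 4.85 CPM) and in sexual mycelium (5.80 and 5.59 CPM) but had 0 counts in all 4 other libraries. With a floor of 3 counts over the group, it was at least 59.1-fold higher in protoapothecia than in vegetative mycelium and at least 57.4-fold higher in sexual than in vegetative mycelium. PCON_07439, of 353 residues, had 2 counts over the 3 protoapothecium libraries, against 125 in sexual mycelium, 4 in vegetative mycelium and 3 in the pool. The ratio of sexual mycelium over protoapothecia was 59.1, with a 95% counting interval of 16 to 494. A short gene named as eIF2B epsilon (PCON_05071, 197 residues) was likewise low, with 35 counts in protoapothecia, 29 in sexual mycelium, 0 in vegetative mycelium and 3 in the pool. It was at least 7.87-fold higher in protoapothecia than in vegetative mycelium.

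**Figure D4:**
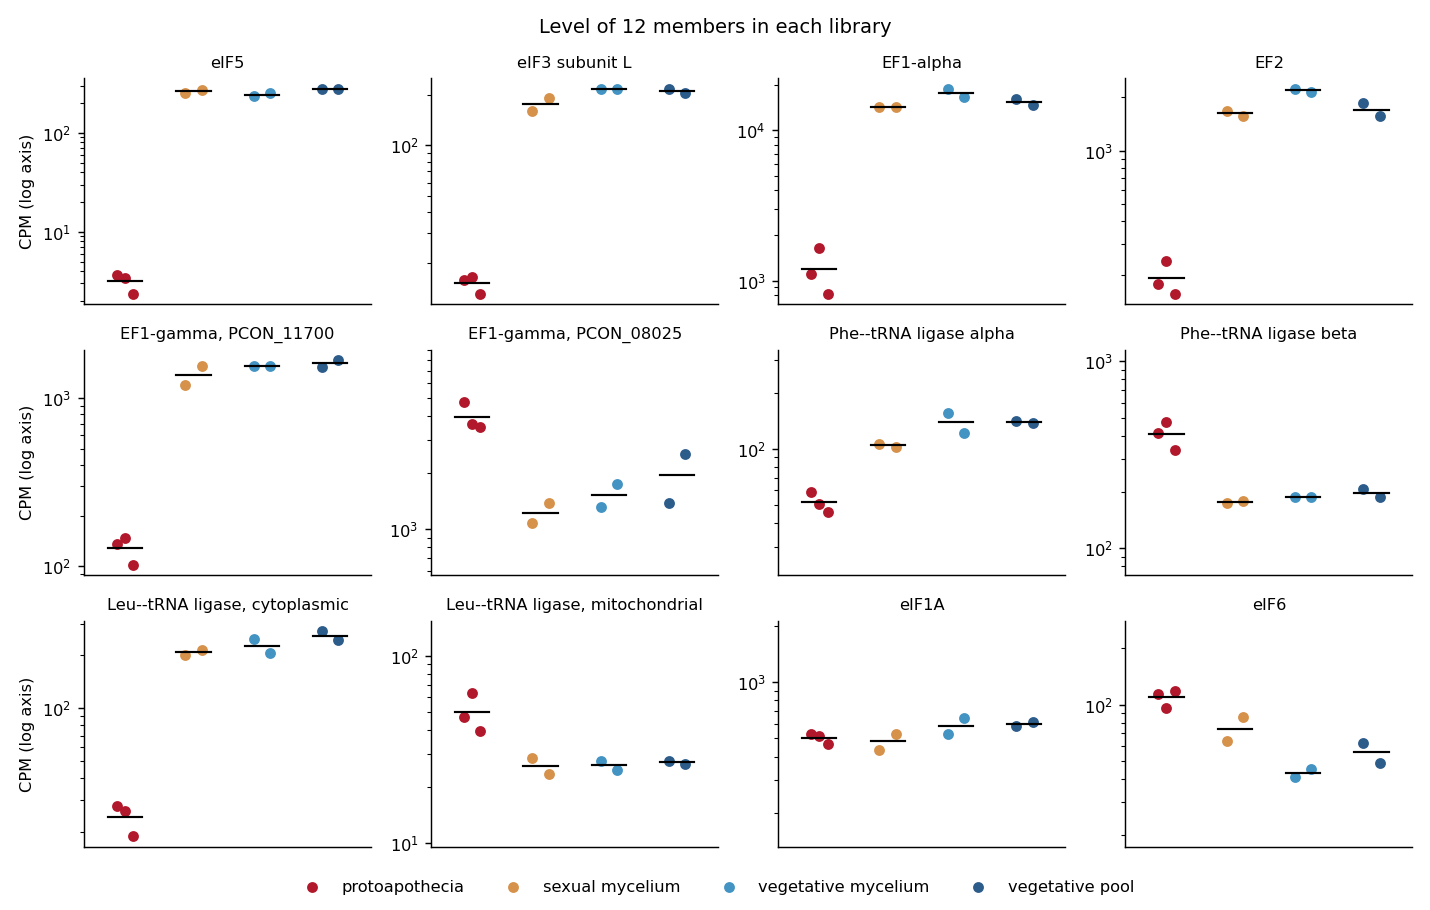
Level of selected translation genes in CPM (log scale) in each library, protoapothecia first. eIF5 lies between 2.37 and 3.63 CPM in protoapothecia and between 234 and 279.6 CPM in mycelium, while eIF1A overlaps between protoapothecia and mycelium.

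Cytosolic elongation factors had the lowest median change of any role with several genes, −3.08 against sexual mycelium. Of 7 genes, 1 rose and 5 fell there, and 1 rose and 6 fell against vegetative mycelium and against the pool. Lower calls made up 71.4% of the 7 against sexual mycelium and 85.7% against vegetative mycelium. Over all genes they made up 34.5% and 32.8% there, and 34.4% against the pool. EF-1 alpha, the GTPase that delivers charged tRNAs, is named by 2 models. PCON_04930 (scaffold 182, 33018 to 34761, minus strand, 458 residues) had 1108, 1637 and 821 CPM in protoapothecia. It had 14288 and 14266 CPM in sexual mycelium, 18966 and 16715 CPM in vegetative mycelium and 16162 and 14717 CPM in the pool. The log2 change was −3.59 ± 0.33 against sexual mycelium (edgeR adjusted p = 2.18e-05), or 12-fold lower. The gene alone took 0.0908%, 0.137% and 0.0669% of the counts in protoapothecia A, B and C, against 1.73% and 1.72% in sexual mycelium. PCON_11298, a model of 305 residues that starts at base 1 of its scaffold, had 1032, 1377 and 858 CPM in protoapothecia and 10364 and 10284 CPM in sexual mycelium, a change of −3.25 ± 0.28. The models ranked 3 and 4 among all genes in level per kilobase. Their sequences were not compared, and whether PCON_11298 is a second copy or a fragment was not tested. How reads were shared between the models is uncertain.

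EF-2 (PCON_09519), which moves the ribosome by 1 codon, had 179, 239.8 and 158 CPM in protoapothecia and 1669 and 1573 CPM in sexual mycelium, a change of −3.08 ± 0.25 (edgeR adjusted p = 1.04e-05). EF-1 beta (PCON_02221), which reloads EF-1 alpha, fell by 1.24 ± 0.34 on the log2 scale (edgeR adjusted p = 0.0108), and the call was lost without sexual mycelium 2 (log2 −0.99). EF-3 (PCON_12723), an ATPase known from fungi, had 540.4, 288 and 784 CPM in protoapothecia, 968 and 967 CPM in sexual mycelium, 980.3 and 1568 CPM in vegetative mycelium and 2667 and 1701 CPM in the pool. It was not called against sexual mycelium (log2 −0.85, edgeR adjusted p = 0.095). It fell against vegetative mycelium (−1.25 ± 0.40, edgeR adjusted p = 0.0202, lost without protoapothecia A with −1.24 and without vegetative mycelium 2 with −0.86) and against the pool (−2.02, edgeR adjusted p = 0.00168).

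The 2 genes named EF-1 gamma, the structural subunit of the exchange complex, moved in opposite directions. PCON_11700, which carries both the EF1G domain and glutathione S-transferase domains, had 135, 147 and 102 CPM in protoapothecia, against 1194 and 1545 CPM in sexual mycelium. It fell by 3.42 ± 0.24 on the log2 scale (edgeR adjusted p = 6.6e-06). PCON_08025, of 217 residues, carries the glutathione S-transferase domains and no EF1G domain in the deposited table. It had 4788, 3663 and 3512 CPM in protoapothecia, against 1074 and 1372 CPM in sexual mycelium, 1307 and 1743 CPM in vegetative mycelium and 1383 and 2525 CPM in the pool. It rose 3.26-fold against sexual mycelium (log2 1.71 ± 0.33, edgeR adjusted p = 0.00183), the largest increase of the 91 genes there. The rise was 1.39 ± 0.33 against vegetative mycelium and 1.03 ± 0.32 against the pool (edgeR adjusted p = 0.0181), the call against the pool being lost without pool library 1 (0.66). Per kilobase, PCON_08025 made up 97.5 to 98.2% of the pair in protoapothecia and 56.4 to 69.8% in mycelium.

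The ribosome recycling ATPase RLI1 (PCON_05681) had 18.6, 11.3 and 14.9 CPM in protoapothecia, against 129 and 108 CPM in sexual mycelium, and fell by 2.97 ± 0.24 on the log2 scale (edgeR adjusted p = 1.3e-05). The release factor GTPase eRF3 (PCON_13393) had 62.8, 41.1 and 93.4 CPM in protoapothecia and 313 and 325 CPM in sexual mycelium, a change of −2.27 ± 0.30 (edgeR adjusted p = 0.00018). Its partner eRF1 (PCON_13373), which reads the stop codon, had 162, 83.2 and 186 CPM in protoapothecia and 263 and 208 CPM in sexual mycelium. It was not called there (log2 −0.71, edgeR adjusted p = 0.0769). It fell by 1.14 against the pool (edgeR adjusted p = 0.00959, lost without pool library 1 with −1.04). Against vegetative mycelium it was called at −0.79 (edgeR adjusted p = 0.0472), and leaving out protoapothecia A or any of the 6 mycelium libraries ended that call.

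Both mitochondrial elongation factors fell in all 3 comparisons. EF-Tu (PCON_11653), the mitochondrial counterpart of EF-1 alpha, had 129.6, 125 and 85.8 CPM in protoapothecia and 180.1 and 247 CPM in sexual mycelium. Its change was −0.91 ± 0.24 (edgeR adjusted p = 0.00802), and the call was lost without sexual mycelium 2 (−0.67). The call against vegetative mycelium was lost without either of its libraries (−0.80 and −0.78). EF-G (PCON_10771), the counterpart of EF-2, changed by −1.43 (edgeR adjusted p = 0.00124). The initiation factor IF-2 named as mitochondrial (PCON_03018) had 30.6, 50.3 and 31.6 CPM in protoapothecia, against 50.8 and 52.2 CPM in sexual mycelium and 70.6 and 71.9 CPM in vegetative mycelium. It was not called against sexual mycelium (−0.47, edgeR adjusted p = 0.13) and fell against vegetative mycelium (−0.94, edgeR adjusted p = 0.00772). A release factor-like protein (PCON_06531) had 12.9, 15.8 and 10.9 CPM in protoapothecia and 33.2 and 36.5 CPM in sexual mycelium, a change of −1.41 (edgeR adjusted p = 0.000561). Mitochondrial release factor 1 (PCON_13670) was not called in any comparison.

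Synthetases described as cytoplasmic all fell: 13 of 13 in each of the 3 comparisons with protoapothecia, with medians of −2.07, −2.08 and −2.03 against sexual mycelium, vegetative mycelium and the pool. With the length trend removed, 12 were called lower against vegetative mycelium and 12 against the pool. The largest decrease was that of leucyl-tRNA synthetase (PCON_12053, scaffold 656, 279134 to 282882, minus strand), with 27.7, 26.3 and 18.8 CPM in protoapothecia and 201 and 215 CPM in sexual mycelium, a change of −3.10 ± 0.23 (edgeR adjusted p = 7.21e-06). Tyrosyl-tRNA synthetase (PCON_11512) had the highest level per kilobase of the class, with 116, 81.5 and 91.8 CPM in protoapothecia and 272 and 288 CPM in sexual mycelium, a change of −1.54 ± 0.20. The smallest decrease of the class was that of arginyl-tRNA synthetase (PCON_02549), at −1.002 ± 0.20, with 97.2 ± 15.6 CPM in protoapothecia (SD, n = 3) and 195 ± 2.86 CPM in sexual mycelium (SD, n = 2). Lysyl-tRNA synthetase (PCON_03981) changed by −2.56 and asparaginyl-tRNA synthetase (PCON_13256) by −1.40, and the class thus moved in 1 direction with sizes from −3.10 to −1.002.

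Synthetases described as mitochondrial were mixed. Of 11 genes, 2 rose and 5 fell against sexual mycelium, 3 rose and 5 fell against vegetative mycelium, and 2 rose and 6 fell against the pool, with medians of −0.40, −0.48 and −0.76. Against sexual mycelium, 18.2% were higher and 45.5% lower, near the 26.7% and 34.5% over all genes. Against vegetative mycelium the shares were 27.3% and 45.5%, with 36.4% and 32.8% over all genes. Beside the 2 of 11 higher and 6 of 11 lower against the pool, the shares over all genes were 34.8% and 34.4%. Whether this small class differs from all genes was not tested. Against sexual mycelium, no gene of the class was called higher without sexual mycelium 2, and 3 were called lower without sexual mycelium 1. Against vegetative mycelium, 1 was called higher without vegetative mycelium 2, 2 were called lower without either vegetative mycelium library, and 3 without protoapothecia C, sexual mycelium 1 or either pool library. Against the pool, 1 was called higher without either pool library, and 3 were called lower without pool library 1. With the length trend removed, 2 rose and 2 fell against sexual mycelium. The same setting gave 2 and 2 against vegetative mycelium, and 2 and 3 against the pool. Mitochondrial methionyl-tRNA synthetase (PCON_09870, scaffold 483, 19183 to 21300, plus strand) had 38.7, 27.2 and 44.6 CPM in protoapothecia. It had 17.9 and 15.7 CPM in sexual mycelium, 12.9 and 12.6 CPM in vegetative mycelium and 16.6 and 16.9 CPM in the pool. It rose by 1.14 ± 0.28 against sexual mycelium (edgeR adjusted p = 0.00647, lost without sexual mycelium 2 with 1.05) and by 1.54 against vegetative mycelium (edgeR adjusted p = 0.00111). Mitochondrial leucyl-tRNA synthetase (PCON_06163) had 47.4, 63.1 and 39.5 CPM in protoapothecia and 28.5 and 23.2 CPM in sexual mycelium, a rise of 0.95 ± 0.26 (edgeR adjusted p = 0.0113, lost without sexual mycelium 2 with 0.81). Its rises of 0.94 against vegetative mycelium and 0.88 against the pool were lost without vegetative mycelium 2 (0.85) and without either pool library (0.91 and 0.85). Mitochondrial glutamyl-tRNA synthetase (PCON_10404) went the other way, with 2.79, 1.5 and 1.78 CPM in protoapothecia and 22.9 and 19.98 CPM in sexual mycelium, a change of −3.36 ± 0.34 (edgeR adjusted p = 3.52e-05). Mitochondrial tyrosyl-tRNA synthetase (PCON_08046) also fell, by 1.26, with 10.6 ± 0.64 CPM in protoapothecia (SD, n = 3) and 25.3 ± 0.28 CPM in sexual mycelium (SD, n = 2). The mitochondrial phenylalanyl (PCON_06691) and threonyl (PCON_10156) enzymes were not called in any comparison, with changes of 0.22 and −0.03 against sexual mycelium. The highest of the class per kilobase, valyl-tRNA synthetase (PCON_01589), had 99.8 ± 27.4 CPM in protoapothecia and 204 ± 10.1 CPM in sexual mycelium, a change of −1.03 ± 0.25 whose call was lost with the length trend removed (−0.17).

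For 10 amino acids the descriptions name 1 cytoplasmic and 1 mitochondrial synthetase. The mitochondrial gene had the higher log2 change in 9 of the 10 in each comparison, glutamate being the exception. The difference, mitochondrial minus cytoplasmic, ran from −0.96 (glutamate) to 4.05 (leucine) against sexual mycelium, with a median of 1.52. Its median was 1.85 against vegetative mycelium and 1.66 against the pool. The difference between the classes was not tested. For leucine, the mitochondrial gene made up 68.3 to 75.2% of the pair's level per kilobase in protoapothecia and 11.3 to 15.2% in mycelium. For methionine, the cytoplasmic gene (PCON_13269) changed by −2.13 against sexual mycelium while the mitochondrial gene rose. The descriptions do not fix where a protein goes: the deposited location predictions placed 11 of the 13 cytoplasmic synthetases in the cytoplasm and 9 of the 11 mitochondrial ones in mitochondria, and for valine the predictions run opposite to the descriptions.

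**Figure D5:**
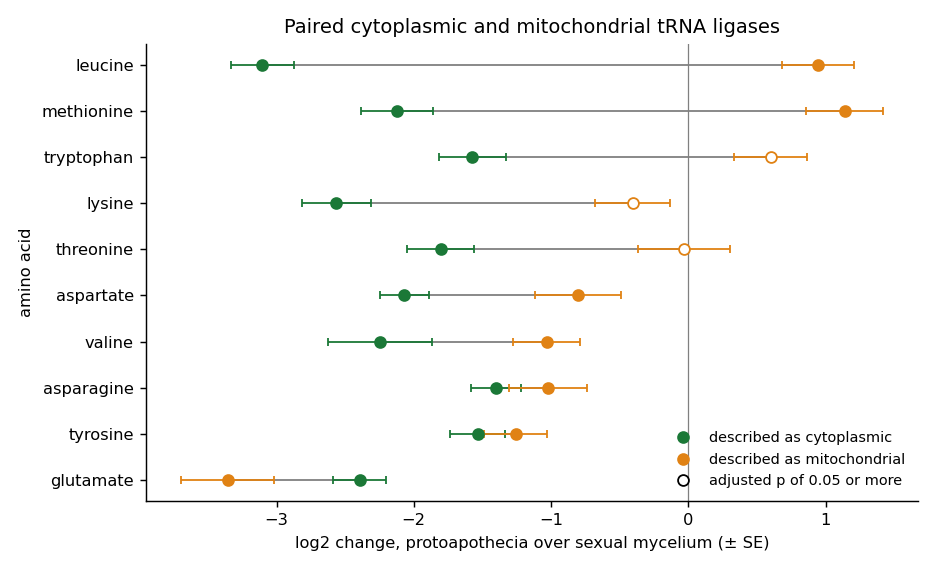
Log2 change in protoapothecia over sexual mycelium (x axis, ± SE) for 10 amino acids (y axis) with 1 cytoplasmic and 1 mitochondrial synthetase, both shown and joined by a line. The mitochondrial gene has the higher change for 9 of 10 amino acids, glutamate being the exception.

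Of the 11 synthetases described without a compartment, 1 rose and 8 fell against sexual mycelium, 2 rose and 8 fell against vegetative mycelium, and 2 rose and 9 fell against the pool. Lower calls made up 72.7% of the 11 against sexual and against vegetative mycelium. Over all genes they made up 34.5% and 32.8% there, and 34.4% against the pool. Glutaminyl-tRNA synthetase (PCON_03650, scaffold 149, 36305 to 39041, plus strand) had 30.6, 29.3 and 47.2 CPM in protoapothecia. It had 371 and 360.4 CPM in sexual mycelium, 333 and 312 CPM in vegetative mycelium and 635 and 541 CPM in the pool, so that the pool stood above the other mycelium groups. Its change was −3.35 ± 0.25 against sexual mycelium (edgeR adjusted p = 8.11e-06) and −4.04 against the pool. Alanyl-tRNA synthetase (PCON_13304), the highest of the class per kilobase, had 109, 137 and 93.4 CPM in protoapothecia and 439 and 456 CPM in sexual mycelium, a change of −1.99 ± 0.21. Cysteinyl- (PCON_09829) and glycyl-tRNA synthetase (PCON_07588) fell, with log2 changes of −2.54 and −2.20 against sexual mycelium, and histidyl-tRNA synthetase (PCON_14197) fell with −0.91.

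Subunits of 1 enzyme parted in phenylalanyl-tRNA synthetase, which works as a complex of alpha and beta chains. The beta subunit (PCON_13375, scaffold 845, 129622 to 132302, plus strand) had 412, 471 and 336 CPM in protoapothecia, against 176 and 180.0 CPM in sexual mycelium, 187 and 187 CPM in vegetative mycelium and 208 and 188 CPM in the pool. It rose by 1.19 ± 0.21 against sexual mycelium (edgeR adjusted p = 0.00102) and by 1.12 and 1.04 against the others. The alpha subunit (PCON_03651) had 58.9, 50.7 and 45.9 CPM in protoapothecia and 106 and 103 CPM in sexual mycelium, and it fell by 1.01 ± 0.20 on the log2 scale (edgeR adjusted p = 0.00196). Levels of the subunits did not overlap between the groups, in opposite directions.

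Seryl- and prolyl-tRNA synthetases are each named by 2 genes. The seryl-tRNA synthetase gene with no compartment (PCON_12864) had 165, 155 and 119 CPM in protoapothecia, 143 and 148 CPM in sexual mycelium, 76.8 and 81.1 CPM in vegetative mycelium and 63.8 and 67.1 CPM in the pool. It rose against vegetative mycelium (0.89, edgeR adjusted p = 0.00379) and the pool (1.16, edgeR adjusted p = 0.000873) and was not called against sexual mycelium (0.01). Its share of the seryl pair per kilobase was 73.9 to 76.9% in protoapothecia, 34.9 to 36.9% in sexual mycelium and 20.1 to 25.3% in the other libraries. The other gene of this pair overlaps a neighbouring model, so its count is uncertain. Of the prolyl pair, PCON_06467 fell, with 54.7 ± 11.3 CPM in protoapothecia (SD, n = 3) and 401 ± 14.9 CPM in sexual mycelium (SD, n = 2), a change of −2.88 ± 0.22. PCON_08115 was not called there (−0.10 ± 0.21). It was called lower against the pool (1.45-fold), and was 1.42-fold lower but not called against vegetative mycelium. Per kilobase PCON_08115 made up 35.6 to 49.7% of the pair in protoapothecia and 8.46 to 14.0% in mycelium.

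The kinase and the splicing ligase were each called higher in 2 of the 3 comparisons with protoapothecia. The eIF2 alpha kinase (PCON_11380), which lowers initiation by phosphorylating eIF2, had 165, 87.3 and 123 CPM in protoapothecia, 99.99 and 140.0 CPM in sexual mycelium, 54.9 and 59.4 CPM in vegetative mycelium and 64.5 and 63.9 CPM in the pool. It rose by 1.13 against vegetative mycelium (edgeR adjusted p = 0.0065, lost without vegetative mycelium 1 with 1.09) and was at 0.06 against sexual mycelium. Its call against the pool (0.96) was lost without pool library 1 (0.97) or 2 (0.96). The tRNA ligase of tRNA splicing (PCON_01411) had 57.3, 53.7 and 32.7 CPM in protoapothecia, 25.3 and 21.5 CPM in sexual mycelium and 18.6 and 15.7 CPM in vegetative mycelium. It rose by 1.03 against sexual mycelium (edgeR adjusted p = 0.0141, lost without sexual mycelium 1 with 1.15 or 2 with 0.92) and by 1.48 against vegetative mycelium (edgeR adjusted p = 0.002).

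Between the mycelium groups few of the translation genes were called. Sexual over vegetative mycelium had 7 higher and 0 lower of the 91, where 20.6% and 9% of all genes were called. At an unadjusted p below 0.05, 1 was lower in edgeR, and DESeq2 also called 1 lower. The count of 7 depended on single libraries: it was 1 without sexual mycelium 2 or vegetative mycelium 1, 2 without vegetative mycelium 2 and 4 without sexual mycelium 1. The 7 were eIF6, both eIF4G genes of low level, the low eIF2B epsilon gene, the eIF2 alpha kinase, seryl-tRNA synthetase PCON_12864 and eIF1 PCON_13806. Their levels stand above, with changes of 1.07 for the kinase (edgeR adjusted p = 0.0271), 0.88 for PCON_12864 (edgeR adjusted p = 0.0143), 0.79 for eIF6 PCON_03192 (edgeR adjusted p = 0.0381) and 0.68 for PCON_13806 (edgeR adjusted p = 0.0341). All 4 of these calls was lost without sexual mycelium 2 and without either vegetative mycelium library. Those of PCON_12864 and PCON_13806 were also lost without sexual mycelium 1, and those of PCON_03192 and PCON_13806 without either pool library. The call of eIF4G PCON_14254 was kept with any 1 library left out. Sexual mycelium over the pool had 3 higher and 1 lower, where 19.8% and 9.48% of all genes were called: PCON_12864 rose by 1.15 (edgeR adjusted p = 0.00407) and eIF3 subunit G PCON_05603 fell by 0.73 (edgeR adjusted p = 0.0229), the other 2 being the eIF4G genes of low level. At an unadjusted p below 0.05, 6 were higher and 7 lower in edgeR, and DESeq2 called 4 higher and 5 lower. The number lower was 9 without protoapothecia B, 4 without protoapothecia C and 0 without any 1 mycelium library, so that the call of PCON_05603 was lost in each of those 6 cases. The number higher was 2 without sexual mycelium 2. Vegetative mycelium over the pool had 0 higher and 0 lower, where 1.79% and 3.41% of all genes were called. There 1 was higher and 3 lower at an unadjusted p below 0.05 in edgeR, and DESeq2 called 0 higher and 1 lower.

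Other genes of translation, a list of 68 that holds regulators, ribosome-associated factors and tRNA-modifying enzymes, are given beside them. Of these, 20 rose and 27 fell against sexual mycelium, 20 rose and 25 fell against vegetative mycelium, and 20 rose and 29 fell against the pool, with medians of −0.19, −0.37 and −0.48. Those shares, 29.4% higher and 39.7% lower against sexual mycelium, 29.4% and 36.8% against vegetative mycelium and 29.4% and 42.6% against the pool, lie nearer to the shares over all genes given above than those of the 91 do. The count that rose was 11 without sexual mycelium 1 and 12 without sexual mycelium 2 in the first comparison, and 11 without pool library 1 in the last. The regulator named cross-pathway control protein A (PCON_02626), in other fungi a transcription factor that induces amino acid synthesis on starvation, had 162 ± 63.2 CPM in protoapothecia (SD, n = 3) and 1537 ± 479 CPM in sexual mycelium (SD, n = 2), a change of −3.25 ± 0.35 (edgeR adjusted p = 5.57e-05). The kinase GCN2 (PCON_13636), which senses uncharged tRNA, was not called against sexual mycelium (log2 −0.51, edgeR adjusted p = 0.117). With the length trend removed its sign turned and it was called higher (log2 0.73, edgeR adjusted p = 0.0161). Both subunits of the tRNA methyltransferase that modifies adenosine in the T loop rose, the trm6 gene (PCON_13438) by 3.65 and the trm61 gene (PCON_02335) by 2.38 (edgeR adjusted p = 0.00072 and 0.00132). Both were highest in protoapothecia B. The trm6 gene PCON_13438 had 187, 612 and 152 CPM in protoapothecia and 23.6 and 26.6 CPM in sexual mycelium. Without protoapothecia B the changes were 2.77 for PCON_13438 and 1.86 for PCON_02335, both still called.

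Some of the translation genes are neighbours. The glutaminyl and phenylalanyl alpha synthetase genes converge on scaffold 149 with 212 bp between them, and both fell. Aspartyl- (PCON_13288) and glutamyl-tRNA synthetase (PCON_13289) diverge on scaffold 842 from starts 28 bp apart, and fell, with log2 changes of −2.07 and −2.40 against sexual mycelium. On scaffold 218, eIF3 subunit G (44893 to 47496) and eIF2 beta (47497 to 49456) touch on the same strand and were called in opposite directions there. How reads at that boundary were counted is not known.

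The authors' deposited table of consensus calls gives fewer calls in the comparisons with protoapothecia. It marks 1 of the 91 as higher and 46 as lower against sexual mycelium, 6 and 39 against vegetative mycelium, and 1 and 48 against the pool. Over all genes that table calls 14.7% higher and 28% lower against sexual mycelium, 27.6% and 21.6% against vegetative mycelium, and 25.6% and 24.4% against the pool. All of the 47, 45 and 49 genes it called had the same call here. Between mycelium groups, the authors' deposited table called 4 of the 91 higher and 0 lower in sexual over vegetative mycelium (22.1% and 5.04% of all genes), and the 4 had the same call here. It called 4 higher and 0 lower in sexual mycelium over the pool (21.1% and 6.61% of all genes), of which 3 had the same call here. In vegetative mycelium over the pool it called 0 of the 91 (3.43% of all genes higher and 6.27% lower).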

How the data were processed

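For the series the authors deposited 1 table. Its columns hold raw read counts per gene model in each of 9 libraries, per the file headers, next to the authors' consensus calls as a score of −1, 0 or 1, model lengths, domains, locations and product descriptions. Per the submitters' processing notes, CASAVA 1.8.2 and DESeq (no version) were used. Which aligner, counter, genome build and strand setting were used is not given in the sources used here. All positions refer to scaffolds as that table names them.

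Testing was done with edgeR 4.0.16 (R 4.3.3, limma 3.58.1). Genes passing filterByExpr (minimum count 10, minimum total 15) numbered 11787. A single fit of 4 groups (TMM scaling, robust quasi-likelihood, 5 residual degrees of freedom) gave 6 two-sided comparisons, with Benjamini-Hochberg adjustment over all genes and a threshold of 0.05. The standard error is the log2 change divided by the square root of the F statistic. The steps were tested on simulated data. DESeq2 1.42.0 was an alternative, and 17 alternatives were run in all.

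Members, roles and lists were chosen with earlier results of these data known. Named genes were called, did not overlap in CPM between the groups, averaged 10 CPM or more where higher and overlapped no other model: the 10 with the largest change in each direction against sexual mycelium and 5 in the other comparisons, plus the highest member of each role, copies of 1 factor and uncalled members with high levels. Other genes named, such as those with few counts, were chosen after their values were seen. Roles in the text are background from other organisms. For protoapothecia B, 3 counts equal 0.642 CPM, and for the other libraries 0.112 to 0.202 CPM. Floors and intervals cover counting error only. No sequences were used. Among the 91 genes, 2 overlap another model, and 0 columns of per-sample values were left unused.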

Additional observations from a re-analysis of the deposited data

How the results depend on the processing

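The predominance of decreases in protoapothecia held under all 17 alternatives. Counts of members called moved by over 1.5 times in these cases. With a minimum fold of 1.5, 4 were higher against sexual mycelium, 6 against the pool, and 3 in sexual over vegetative mycelium, with 0 lower in sexual mycelium over the pool. With the length trend removed, sexual over vegetative mycelium had 4 higher and 1 lower, and sexual mycelium over the pool had 5 lower. DESeq2 gave 1 lower in sexual over vegetative mycelium, 5 lower in sexual mycelium over the pool and 1 lower in vegetative mycelium over the pool. Fitting only the 2 groups compared gave 4 lower in sexual over vegetative mycelium, 5 higher and 8 lower in sexual mycelium over the pool, and 3 lower in vegetative mycelium over the pool. Medians against sexual mycelium, vegetative mycelium and the pool were −1.01, −1.29 and −1.34 with RLE scaling and −0.89, −1.25 and −1.26 with the length trend removed. In vegetative mycelium over the pool the median was −0.023 with RLE and −0.019 with upper-quartile scaling. Shares of the 91 genes were 1.41% in protoapothecia, 4.39% in sexual mycelium, 5.24% in vegetative mycelium and 4.97% in the pool on TMM-scaled CPM, and 1.06%, 3.57%, 3.6% and 3.63% without the longer EF-1 alpha gene. Leaving out each library in turn gave 3 to 11 higher and 53 to 60 lower against sexual mycelium, 10 to 15 and 53 to 61 against vegetative mycelium, and 5 to 13 and 57 to 65 against the pool. It gave 1 to 7 higher and 0 to 3 lower in sexual over vegetative mycelium, 2 to 4 and 0 to 9 in sexual mycelium over the pool, and 0 to 0 and 0 to 2 in vegetative mycelium over the pool. The medians ranged over −1.33 to −1.12, −1.44 to −1.35, −1.55 to −1.45, −0.13 to −0.02, −0.23 to −0.10 and −0.09 to −0.07 in the same order of comparisons. The labels do not pair the libraries by number, and same-numbered libraries did not deviate together (correlations of 0.119, −0.157 and −0.0431). A replicate block gave 5 higher and 56 lower, 12 and 55, and 9 and 60 against sexual mycelium, vegetative mycelium and the pool. Of 731 alternative values for 43 changes of 21 named genes, 57 in 13 changes no longer passed the threshold and 1 reversed: eIF1 PCON_13806 in sexual over vegetative mycelium, at −0.03 with the length trend removed. The median change of all genes against sexual mycelium was −0.14 with TMM, 0.03 with RLE and −0.25 with upper-quartile scaling. The cause of these shifts was not tested. The depth of protoapothecia B limits genes below about 1 CPM.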
